A study of Mus musculus with 4 samples.

Results

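The genes of 7 subunits of the GABA-A receptor were followed in the globus pallidus of mice after a cocaine place preference protocol. The members were Gabra2, Gabra3, Gabra4 and Gabra5 (alpha subunits), Gabrb1 and Gabrb2 (beta subunits) and Gabrd (the delta subunit), taken as every spot whose platform annotation gave exactly 1 gene symbol equal to 1 of these. They are 7 of 19087 genes with 1 symbol and are measured by 15 of 45220 spots. Cocaine mice were C57BL6 males given 15 mg/kg cocaine on protocol days 2, 3 and 4 that scored low for place preference, and saline mice were C57BL6 males given saline on the same days. No age is given in the labels used here, and the groups carry no allele or transgene there. Each of 4 Agilent arrays set 1 cocaine sample against 1 saline sample, with the cocaine sample labelled by Cy5 on arrays 1 and 3 but by Cy3 on arrays 2 and 4. The 8 samples carry different codes, and nothing states what the codes stand for. The p-values of the reported fit thus measure the spread between these arrays. Since all cocaine mice scored low, effects of the drug and of the score cannot be told apart.

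GABA-A receptors are pentameric chloride channels that open when GABA, the main inhibitory transmitter of the brain, binds between an alpha and a beta subunit. Receptors with alpha2, alpha3 or alpha5 and a gamma subunit carry the benzodiazepine site, whereas alpha4 with delta forms extrasynaptic receptors that answer ambient GABA and neurosteroids with a steady current. The globus pallidus is built almost wholly of GABAergic neurons and receives dense GABAergic input from the neighbouring striatum, whose projection neurons themselves use alpha2, alpha4, beta and delta subunits.

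The start regions of 4 members are printed because they show how unlike the regulatory sequence of the family is. The RefSeq promoter table (build GRCm38.p6) held 10 windows for 6 of the 7 members (Gabrd was not matched), and the bases before the start are given 5′ to 3′ on the strand of the gene. Capitals mark a GC box (GGGCGG) or a TATA box (TATAAA) on either strand. Gabra4 is at chr5:71658309-71658558 (minus strand), Gabra2 at chr5:71095850-71096099 (minus strand), the first of 3 starts of Gabrb2 at chr11:42420190-42420439 (plus strand) and the first of 2 starts of Gabra3 at chrX:72656920-72657169 (minus strand).
Gabra4: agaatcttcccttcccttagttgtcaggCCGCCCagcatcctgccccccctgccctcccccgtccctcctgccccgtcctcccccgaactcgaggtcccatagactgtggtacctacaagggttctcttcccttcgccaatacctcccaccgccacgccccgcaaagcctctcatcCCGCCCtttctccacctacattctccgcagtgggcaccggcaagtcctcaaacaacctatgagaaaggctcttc
Gabra2: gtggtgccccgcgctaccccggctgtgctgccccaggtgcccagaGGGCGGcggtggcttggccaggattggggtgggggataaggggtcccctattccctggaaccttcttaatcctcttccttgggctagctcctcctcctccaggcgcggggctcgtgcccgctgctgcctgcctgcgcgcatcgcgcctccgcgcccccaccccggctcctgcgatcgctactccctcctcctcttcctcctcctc
Gabrb2: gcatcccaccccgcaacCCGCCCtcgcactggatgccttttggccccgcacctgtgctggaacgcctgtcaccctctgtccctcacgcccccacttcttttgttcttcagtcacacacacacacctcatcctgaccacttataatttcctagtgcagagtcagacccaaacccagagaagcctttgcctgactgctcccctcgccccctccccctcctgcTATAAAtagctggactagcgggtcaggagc
Gabra3: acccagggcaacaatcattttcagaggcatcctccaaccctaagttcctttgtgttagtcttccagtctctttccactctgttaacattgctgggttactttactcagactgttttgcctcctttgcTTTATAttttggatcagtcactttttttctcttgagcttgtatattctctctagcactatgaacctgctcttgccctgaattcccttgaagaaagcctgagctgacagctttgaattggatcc

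The Gabra2 stretch was 70.0% G and C with 18 CpG dinucleotides, the Gabra4 stretch 61.2% with 12, the Gabrb2 stretch 58.8% with 8 and the Gabra3 stretch 42.4% with 0, against medians of 52.4% and 6 over all windows. The Gabrb2 stretch holds a TATA box whose first base lies 30 bases before the start. The only TATA box letters in the Gabra3 stretch, on the other strand, begin 123 bases before it. GC box letters stood in 3 of the 10 member windows of 300 bases and in 35.7% of all 32851 windows, and TATA box letters in 3 of 10 and in 13.6%. Both Gabra3 windows overlap and hold the same TATA box letters, so the 3 windows hold 2 distinct sites. A cAMP response element (TGACGTCA), an AP-1 site (TGACTCA), an EGR site (GCGTGGGCG) and a clock-type E-box (CACGTG) were searched on both strands and matched 0 of the 10 windows, against 1.79%, 5.20%, 0.612% and 7.15% of all windows. No motif found in a printed stretch overlapped another. In the order of RefSeq genes, Gabra2, Gabra4 and Gabrb1 lie in 1 cluster on chromosome 5, where Gabra4 and Gabrb1 overlap and 1 coding gene separates Gabra2 from Gabra4.

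The deposited values were log2 ratios of the channels of an array, with medians of 0.33, -0.25, 0.49 and -0.56 on arrays 1 to 4. Across spots, arrays of the same dye orientation correlated at 0.87 to 0.90 and arrays of opposite orientation at -0.96 to -0.83, so the columns had likely been turned to 1 treatment direction and still carried a dye bias. Cocaine over saline is the likely direction, from the wording of the design text. If the ratio was saline over cocaine, every sign below turns. The scale was log2 and the columns were not centred. A spot was called above background where its dye bias, averaged over both orientations, lay more than 3 SDs above that of dim spots, a stand-in because intensities were not used here. By this measure 13 of the 15 member spots and at least 1 spot of each of the 7 genes were above background, against 65.0% of all spots and 74.2% of all genes. Of a marker list for pallidal neurons, 17 of 17 measured genes had a spot above background, as did 18 of 19 for striatal projection neurons. Ratios carry no level, so the members cannot be ranked by abundance.

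No GABA-A subunit gene passed the test, and all 7 had a mean log2 ratio above 0. The values lay between 0.03 for Gabrb2 and 0.28 for Gabrd, with a median of 0.05 against -0.003 over all 19087 genes. Gabrd and Gabra4, the pair that forms extrasynaptic receptors, had the highest values of the family. With limma, 0 of 7 members and 0 of 30452 features (0%) had an adjusted p under 0.05. At an unadjusted p under 0.05 there were 0 of 7 members and 290 of 19087 genes (1.52%). That count of members depended on the processing. It was 2 (Gabrd and Gabra4) with each array centred on its median, where 2.05% of features had such a p. Without the 10% of features that varied least it was also 2, and the share of features was 3.83%. In both settings limma gave the 7 members nearly the same SE. Those p-values thus follow the size of the ratio and not a gene's own spread. Leaving out 1 array leaves a lone array in 1 dye orientation, so no p-values are given for those fits. A mean above 0 was found for 48% of all genes. The 7 values share arrays and are not independent of each other, and without array 2 the count above 0 was 3 of 7.

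Deposited and normalized values differed strongly, as the delta subunit gene shows. Gabrd encodes the subunit that marks extrasynaptic receptors of high GABA affinity. As deposited, its single spot read 0.79, -0.17, 1.545 and -1.12 on arrays 1 to 4, positive where cocaine was in Cy5 and negative where it was in Cy3. After loess normalization, which removes from each array the part of the ratio that follows the averaged dye bias, its log2 ratios were 0.04, 0.55, 0.51 and 0.02 on arrays 1 to 4. Arrays 2 and 3 were high and arrays 1 and 4 close to 0. Each dye orientation held 1 array of each kind. The loess nearly fixes such a split, because it brings the means of both orientations together, so the split says nothing about the dye. Gabrd was the only member above 0 on 4 of 4 arrays, a pattern that 8% of all genes had.

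The mean log2 ratio of Gabrd was 0.28 (SE 0.12, n = 4 arrays), a ratio of 1.21 with a 95% interval of 0.986 to 1.49. Limma gave an adjusted p of 0.999 and an unadjusted p of 0.0626. With spots above background alone, the unadjusted limma p was 0.0458. It was 0.0191 with each array centred on its median and 0.00225 without the 10% of features that varied least. The last 2 follow the size of the ratio and not the spread of Gabrd over the arrays. The lowest adjusted p among these settings was 0.315. Among the 14166 genes with a spot above background, 99.2% had a smaller absolute log2 ratio, and 95.5% also had a smaller SE. The mean was 0.15 without array 2, 0.16 without array 3, 0.39 without array 1 and 0.40 without array 4.

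Gabra4 encodes the alpha subunit that most often partners delta in forebrain extrasynaptic receptors and that lacks the classical benzodiazepine site. Its single spot read 1.34, -0.36, 1.64 and -1.68 on arrays 1 to 4 as deposited. The normalized log2 ratios were 0.23, 0.70, 0.25 and -0.22. Array 2 stood far above the others and array 4 was the only one below 0, so both arrays with cocaine in Cy3 disagreed by 0.92 while those with cocaine in Cy5 differed by 0.02.

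The mean log2 ratio of Gabra4 was 0.24 (SE 0.15, n = 4 arrays), a ratio of 1.18 with a 95% interval of 0.909 to 1.54. The adjusted p from limma was 0.999. The unadjusted limma p was 0.0367 with each array centred on its median and 0.00797 without the 10% of features that varied least. As for Gabrd, these follow the size of the ratio and not the spread of Gabra4 over the arrays. Its absolute log2 ratio was larger than that of 98.7% of genes above background, and its SE was larger than that of 98.7% of them as well. Without array 2 the mean was 0.05 and without array 4 it was 0.46. Without array 4, array 2 is the only one with cocaine in Cy3 and adds nothing to the error, so no p-value is given for that fit.

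**Figure D1:**
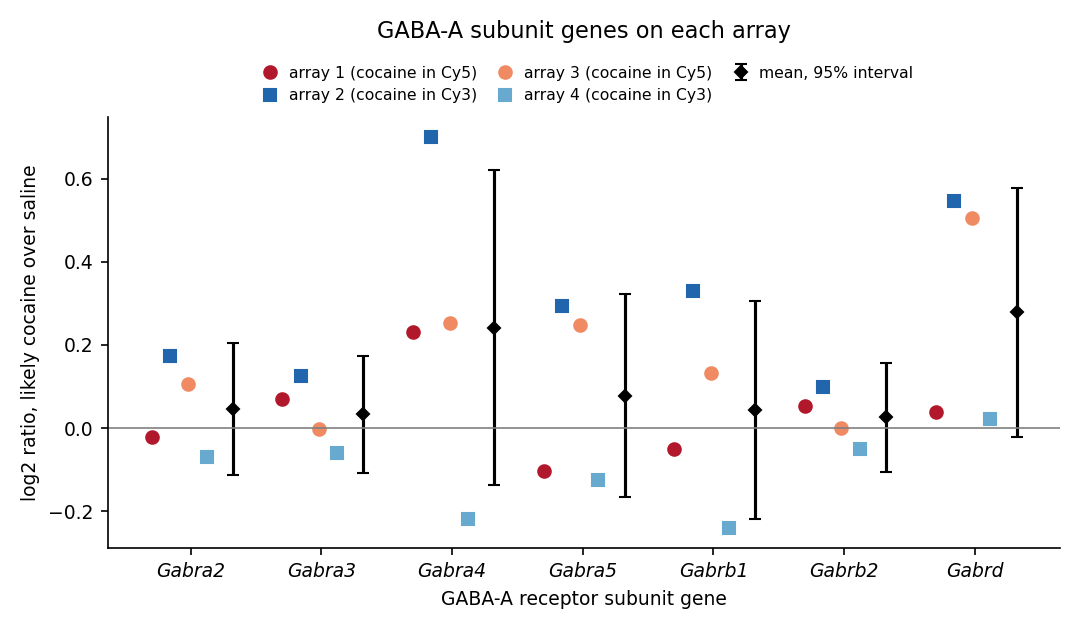
Normalized log2 ratio (y axis, likely cocaine over saline) of each GABA-A subunit gene (x axis) on arrays 1 to 4, with circles for cocaine in Cy5 and squares for cocaine in Cy3, and the mean with its 95% interval (black). Array 2 is the highest and array 4 the lowest point for 7 of 7 genes, and 0 of 7 intervals lie wholly above 0.

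Size and error can be read together in the plot of log2 ratio against SE. Gabrd and Gabra4 sit at the edge of the cloud of genes in both directions, whereas Gabra2, Gabra3 and Gabrb2 lie in its middle. The absolute log2 ratio of Gabra2 was larger than that of 52.5% of genes above background, that of Gabra3 larger than 39.6% and that of Gabrb2 larger than 31.1%.

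**Figure D2:**
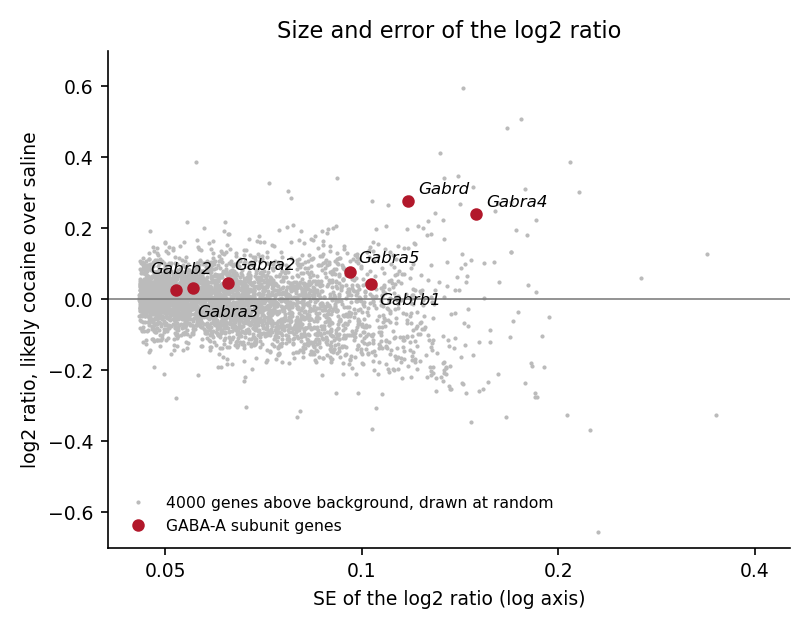
Mean log2 ratio (y axis, likely cocaine over saline) against its SE (x axis, log scale) for the 7 GABA-A subunit genes (red) and 4000 genes above background drawn at random (grey), of which 2 lie outside the y axis. The genes with the largest ratios, Gabrd and Gabra4, also have large SEs of 0.12 and 0.15.

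The other alpha subunits of the set form receptors with the benzodiazepine site. Gabra2, whose product serves synapses on striatal neurons and axon initial segments, had log2 ratios of -0.02, 0.17, 0.10 and -0.07 on arrays 1 to 4. Arrays 2 and 3 were above 0 and arrays 1 and 4 below it. The mean was 0.05 (SE 0.06), with a 95% interval of -0.11 to 0.20.

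The 3 Gabra2 spots did not agree. Spot 1 read 0.19, 0.20, 0.16 and 0.17 on arrays 1 to 4, with a mean of 0.18 (SE 0.05) and an unadjusted limma p of 0.0154, and is singled out here after its values were seen. Spot 2 had a mean of 0.03 (SE 0.05). Spot 3, annotated to the RefSeq transcript, read -0.27, 0.34, 0.11 and -0.47, with a mean of -0.07 (SE 0.15). Spots 1 and 2 are annotated to cDNA clones of the same gene symbol. Spot 1 was thus even over the arrays and spot 3 widely spread. No spot of any member passed when spots were tested singly.

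Gabra3 encodes the alpha subunit common in monoaminergic and reticular thalamic neurons. Its log2 ratios were 0.07, 0.13, -0.003 and -0.06 on arrays 1 to 4, which gives a mean of 0.03 (SE 0.06) and a 95% interval of -0.11 to 0.17. Of its 3 spots, 1 was not above background. The brightest by dye bias, spot 2, read 0.26, 0.23, -0.17 and -0.12 on arrays 1 to 4. Spot 3 had a different order, with 0.14 on array 2 and 0.09 on array 3 above 0 and -0.06 and -0.12 on arrays 1 and 4 below it.

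Gabra5, best known for extrasynaptic receptors of the hippocampus, had log2 ratios of -0.10, 0.29, 0.25 and -0.12 on arrays 1 to 4. Arrays 2 and 3 were again high and arrays 1 and 4 low. The mean was 0.08 (SE 0.10), with a 95% interval of -0.17 to 0.32. Both spots had arrays 2 and 3 above arrays 1 and 4, with means of 0.05 (SE 0.14) for spot 1 and 0.11 (SE 0.06) for spot 2. Array 2 was the highest for spot 1 and array 3 for spot 2. The distance between arrays 2 and 4 was 0.68 for spot 1 and 0.16 for spot 2. The mean of the gene turned to -0.03 without array 2 and to -0.005 without array 3.

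The beta subunits form part of the GABA site and are needed for receptors to reach the surface. Gabrb1 had log2 ratios of -0.05, 0.33, 0.13 and -0.24 on arrays 1 to 4, a mean of 0.04 (SE 0.10) and a 95% interval of -0.22 to 0.31. Its arrays 2 and 4 lay 0.57 apart, the widest gap after Gabra4, its overlapping neighbour on chromosome 5. The mean turned to -0.09 without array 2 and to -0.01 without array 3.

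Gabrb2, the beta subunit of the most abundant receptor type of the adult brain and of the pallidum, varied least of the 7. Its log2 ratios were 0.05, 0.10, 0.001 and -0.05 on arrays 1 to 4, with a mean of 0.03 (SE 0.05) and a 95% interval of -0.11 to 0.16. On the fold scale that interval ends at 1.12. Its 4 spots had means between -0.01 and 0.07, and the one not above background had the highest. Only 26.0% of genes above background had a smaller SE.

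**Figure D3:**
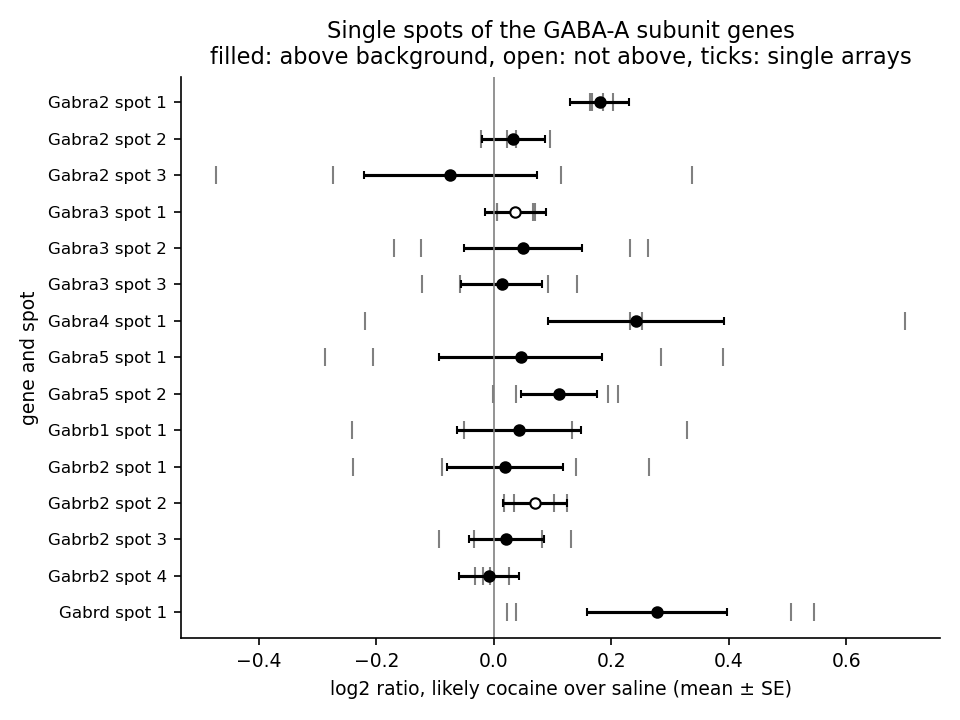
Mean log2 ratio ± SE (x axis, likely cocaine over saline) of the 15 spots of the GABA-A subunit genes (y axis), with grey ticks for the 4 arrays. Open circles mark the 2 spots not above background, and 13 of the 15 means lie above 0.

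The 7 genes shared their highest and their lowest array, although not the whole order of arrays. Array 2 was the highest array for 7 of 7 members, against 26.3% of genes above background. This held for the averaged spots of each gene and not for every spot. The exceptions were Gabra2 spot 2, Gabra3 spots 1 and 2, Gabra5 spot 2 and Gabrb2 spots 2 and 4. For Gabra2 spot 2 and Gabrb2 spot 4, both above background, array 2 was the lowest. Arrays 2 and 3 both lay above arrays 1 and 4 for 5 of 7 members, the exceptions being Gabra3 and Gabrb2, against 23% of genes above background. The loess brings the mean of arrays 1 and 3 close to that of arrays 2 and 4 for each gene, so the highest array nearly fixes the lowest and these are not separate observations. The member medians were 0.04, 0.29, 0.13 and -0.07 on arrays 1 to 4, against -0.01, -0.01, 0.01 and 0.01 for all genes.

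The medians of 4 other lists had the same order of arrays (2, 3, 1, 4, from high to low), which were the striatal projection neuron, cholinergic and endothelial markers and the GABA-B receptor genes, and no difference between lists was tested. The medians of the 19 measured striatal markers were 0.01, 0.21, 0.14 and -0.07 on arrays 1 to 4, array 2 was the highest for 12 of 19, and their median over the fit was 0.05 with 11 of 19 above 0. Endothelial markers had medians of -0.03, 0.08, 0.02 and -0.04, with array 2 the highest for 5 of 9 and 6 of 9 above 0 over the fit. For GABA-B receptor genes the medians were 0.001, 0.07, 0.007 and -0.04, with array 2 the highest for 3 of 4. Pallidal neuron markers did not have this order, with medians of -0.10, -0.03, -0.01 and -0.02 over 17 genes and array 2 highest for 5 of 17. Cortical markers were highest on array 3, with medians of -0.15, 0.13, 0.26 and 0.10 over 11 genes. Thalamic markers had medians of -0.02, 0.04, 0.04 and -0.02 over 13 genes, and cholinergic markers -0.11, -0.01, -0.07 and -0.21 over 8, with array 2 the highest for 4 of 8. Over the fit, 9 of 11 cortical markers were above 0 (median 0.09), as were 0 of 8 cholinergic (-0.16), 1 of 9 oligodendrocyte (-0.07), 5 of 17 pallidal (-0.05), 6 of 13 thalamic (-0.004), 4 of 9 astrocyte (-0.04) and 2 of 7 microglial markers (-0.07). A spot above background was found for 8 of 11 cortical, 7 of 8 cholinergic and 12 of 13 thalamic markers. Neurod6, Tbr1 and Fezf2, which had none, were among the cortical markers above 0. No marker in these lists passed in either direction. The part of these cell types in the subunit values was not tested. In dissected tissue, fewer cells of a type and less RNA per cell cannot be told apart.

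**Figure D4:**
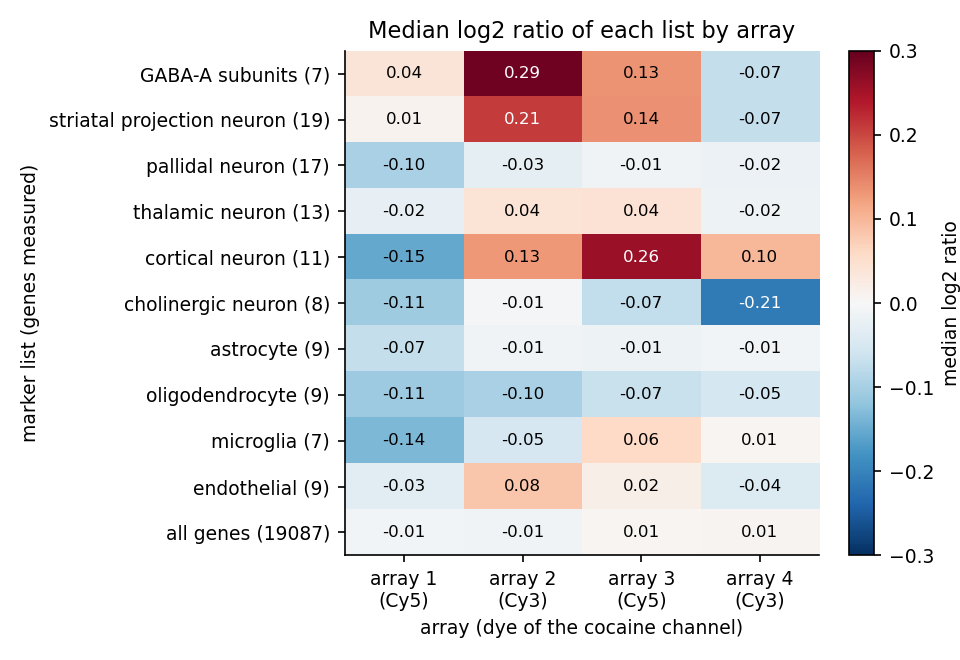
Median log2 ratio of each gene list (rows, number of measured genes in brackets) on arrays 1 to 4 (columns, dye of the cocaine channel in brackets), with the colour scale in log2 units. The GABA-A subunits and the striatal projection neuron markers are the rows with 0.29 and 0.21 on array 2 and -0.07 on array 4.

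Among the members themselves, Gabra3 and Gabrb2 had the most similar array values, with a Euclidean distance of 0.0333 over the 4 log2 ratios. Gabra4 and Gabrb2 lay farthest apart at 0.696, and Gabra4 and Gabrd lay 0.429 apart. The 3 genes above background closest to Gabrd were Ptk2b (distance 0.0611), Camkv (0.121) and Tiam2 (0.127). Ptk2b, a calcium-activated tyrosine kinase, read 0.02, 0.53, 0.55 and 0.06 on arrays 1 to 4. Closest to Gabra4 were A330008L17Rik (0.195), Akap5 (0.209) and Rasgrp1 (0.228). Akap5, a postsynaptic anchor of protein kinase A, read 0.36, 0.86, 0.27 and -0.24. Closest to Gabrb1 were Ntrk2 (0.0127), the receptor of brain-derived neurotrophic factor, Prkcb (0.0212) and Lrrc4 (0.0388). For Gabra5 they were Ldha (0.0515), Rnf125 (0.0537) and Syne1 (0.0565), and for Gabra2 Lonrf2 (0.0181), Olfr740 (0.0186) and Prkce (0.0227). For Gabra3 they were Slc17a8 (0.00623), Ttc19 (0.0086) and Txnl1 (0.0139), and for Gabrb2 Pfas (0.00628), AI597479 (0.0158) and Sox6 (0.0158).

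Of 8 further GABA-A subunit genes, array 2 was the highest for 1, Gabrr1. Of these 8, 2 were above 0 and 6 below, with a median log2 ratio of -0.02. The 2 above 0, Gabrg1 and Gabrr1, were also the only 2 with a spot above background. The 6 below 0 had no spot above background, so their signs are no contrast to the members. Gabrg1, a gamma subunit gene next to Gabra2 on chromosome 5, had 0.18, 0.14, -0.03 and 0.01 on arrays 1 to 4, with a mean of 0.08 (SE 0.06). Gabrr1, a rho subunit gene known from the retina, had 0.06, 0.13, 0.07 and 0.03, with a mean of 0.07 (SE 0.05). Gabrg1 was high on arrays 1 and 2, whereas its neighbour Gabra2 was high on arrays 2 and 3.

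Of 9 measured genes for the synthesis, uptake and breakdown of GABA, 3 were above 0 and 6 below, with a median of -0.01. Slc6a11, the GABA transporter GAT-3 of astrocytes, had -0.26, -0.24, -0.02 and -0.04 on arrays 1 to 4 and a mean of -0.14 (SE 0.07), a larger absolute value than 92.5% of genes above background. Aldh5a1, the last enzyme of GABA breakdown, had a mean of 0.06 (SE 0.06).

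Genes for the anchoring and trafficking of GABA-A receptors were above 0 in 5 of 19 and below in 14, with a median of -0.03. Shisa7, an auxiliary subunit of GABA-A receptors, had 0.06, 0.17, 0.37 and 0.28 on arrays 1 to 4. All 4 arrays were above 0, with a mean of 0.22 (SE 0.07). It was the only gene of the 7 other GABA and glycine lists with an unadjusted limma p under 0.05 (0.0234), and its adjusted p was 0.999. Arfgef2, an exchange factor for vesicle traffic, had a mean of -0.11 (SE 0.05) and was below 0 on 4 of 4 arrays.

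Of 8 chloride-handling genes 2 were above 0, with a median of -0.07. Car2, a carbonic anhydrase, had a mean of -0.13 (SE 0.06) and Slc12a4, a potassium chloride cotransporter, a mean of -0.15 (SE 0.08). Of 4 GABA-B receptor genes 3 were above 0 (median 0.01), with Kctd12 at 0.05 (SE 0.05) and Kctd8 at -0.04 (SE 0.06), both auxiliary subunits. Of 5 glycine receptor genes 4 were above 0 (median 0.06), but Glra1, at 0.17 (SE 0.11), and Glra4, at 0.06 (SE 0.05), had no spot above background. Of 5 neurosteroid synthesis genes 2 were above 0 (median -0.005), with Akr1c14, which makes neurosteroids that act on delta receptors, at 0.10 (SE 0.05) and Cyp11a1, the enzyme that starts steroid synthesis, at -0.11 (SE 0.06). None of the genes in these 7 lists passed in either direction.

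**Figure D5:**
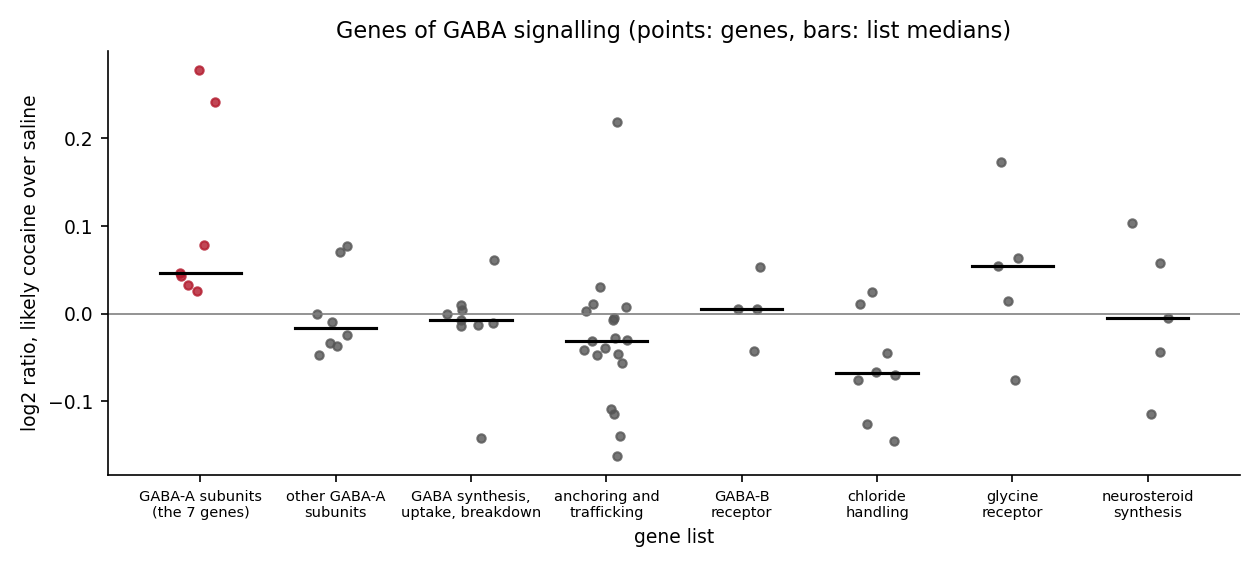
Mean log2 ratio (y axis, likely cocaine over saline) of each measured gene (points) in 8 lists of GABA and glycine signalling (x axis), with bars for list medians. The 7 GABA-A subunit genes (red) range from 0.03 to 0.28, and no gene shown passed an adjusted p under 0.05.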

How the data were processed

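RNA of the globus pallidus was hybridised to 4 Agilent whole mouse genome arrays of 60-mer probes, from 75 ng aliquots per the labels' protocols. The values deposited by the authors are log2 ratios per spot. Agilent Feature Extraction is the tool in the submitters' processing notes, where it has no version. On array 3, 98.29% of 10000 values, read as log2, gave a quotient of whole numbers to within 2e-13 (read as log10, 0.22%). The deposited log2 ratios there are thus mostly ratios of whole numbers. The same was assumed for the other arrays. The whole-number check does not show whether background was subtracted. Ratios without background subtraction understate folds of dim transcripts.

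Rows equal to 0 on all arrays (202) were left out. Each array was normalized by loess (span 0.3) against the mean dye bias of both orientations, which also makes the 4 values of a gene dependent. Spots of a gene were averaged, giving 30452 features. Limma 3.58.1 in R 4.3.3 fitted treatment and dye, with eBayes and Benjamini-Hochberg adjustment over all features at a threshold of 0.05. Its 2 residual degrees of freedom became 5.21 after moderation. A spot counted as above background where its averaged dye bias exceeded 0.07, which is 3 SDs (from the median absolute deviation) above the mode of dim spots. This is a stand-in, since intensities were not used here, and no depth applies. The number of arrays limits the precision. Steps were tested on simulated data with effects far larger than the ratios of the members, so recovery of ratios of that size was not tested.

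Symbols came from the platform annotation, and 7 of 7 members matched RefSeq by Entrez identifier. Members and lists were chosen with earlier results of these data known. Besides the members, the 2 genes with the smallest p of each GABA or glycine list and the 3 nearest genes of each member were named by rule. Alternatives covered normalization, loess span, dye term, dim spots, single spots, the prior and single arrays.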

Additional observations from a re-analysis of the deposited data

Results flagged for a closer look

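Across the named genes and lists, 204 sets of 4 array values were examined for 1 array far from the rest. The astrocyte marker list was the only one that stood out, with a gap of 0.916 of the range, above Dixon's critical value, because its median was -0.07 on array 1 and -0.01 on each of arrays 2 to 4. None of the 7 GABA-A subunit genes stood out. Chance alone flags about 1 in 20 such groups of independent values, but the loess ties the 4 values of a gene, which makes a lone array hard to find.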

How the results depend on the processing

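Under 8 settings that kept all 4 arrays (no normalization, median centring, loess span 0.7, no dye term, spots above background alone, single spots, a robust prior, and leaving out the 10% of features that varied least), the 7 members stayed above 0 and none passed. The member median lay between 0.04 and 0.05 there. Dropping the dye term, a robust prior and leaving out features cannot change the mean of a gene. Nor can single spots, whose ratios were averaged back to genes. The signs in these settings were thus fixed in advance. Of the 15 spots themselves, 13 had a mean above 0. The number of features called, 0 as reported, was 18 with each array centred on its median and 60 without the 10% of features that varied least, with 0 members among either. In both settings the p-values of the members followed the size of the ratio and not a gene's own spread. The members' log2 ratios depended on single arrays. Without replicate 2 the count above 0 was 3, and Gabra2 (-0.017), Gabra3 (-0.012), Gabra5 (-0.029) and Gabrb1 (-0.088) turned below 0. Without replicate 3, Gabra5 (-0.005) and Gabrb1 (-0.01) did. Over the fits that left out 1 array, the count above 0 ranged from 3 to 7 and the number of features called was 0. The ranges were -0.01 to 0.17 for the member median, -0.017 to 0.10 for Gabra2, -0.012 to 0.077 for Gabra3, 0.05 to 0.46 for Gabra4, -0.029 to 0.17 for Gabra5, -0.088 to 0.18 for Gabrb1, 0.01 to 0.08 for Gabrb2 and 0.15 to 0.40 for Gabrd. In these fits the lone array of a dye orientation is assumed to vary like the others and weighs as much as the other pair. The cause of these shifts was not tested. No paired analysis was possible beyond the reported fit because each array's ratio is already the difference within 1 cocaine and saline pair.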
